A study of Mus musculus with 12 samples.

Results

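The 10 genes of the smooth muscle contractile apparatus studied in sorted mouse prostate epithelium were Acta2, Actg2, Tagln, Cnn1, Myh11, Myl9, Cald1, Tpm1, Tpm2 and Smtn. They were chosen by name, as genes that encode parts of this apparatus, from the 24054 genes listed for every library. All 10 were also among the 14201 genes that passed the filter on low counts. Basal and luminal cells had been sorted from the prostates of C57BL/6 mice aged 3 or 24 months, and their mRNA was sequenced. The 4 groups were young basal, old basal, young luminal and old luminal cells, with 3 libraries in each group and 2 mice of the same age pooled in each library. No agent or engineered allele is named in the labels for any group. How the cells were gated was not given in the sources used here.

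Smooth muscle shortens when myosin filaments built from the heavy chain MYH11 pull on filaments of the alpha and gamma smooth muscle actins. Phosphorylation of the regulatory light chain MYL9 switches the motor on, while tropomyosins, calponin, caldesmon, transgelin and smoothelin bind the actin filament and tune or stabilise it. In the prostate these proteins are best known from the muscular stroma that wraps each gland. Basal cells of several glandular epithelia also make some of them, and the tropomyosin and caldesmon genes give rise to non-muscle isoforms as well. In a bulk library, fewer cells of a type and less RNA per cell cannot be told apart.

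The libraries held 20012691 to 27663450 counts and 11706 to 13744 genes above 0. The reads came from fewer molecules than these totals, with an estimated 378951 to 1443424 distinct fragments per library and 16 to 73 reads per fragment. The young basal libraries held 378951 to 564923 fragments, and the thinnest library was among them. A limit of 3 distinct fragments over a group corresponded to 2.19 CPM (counts scaled to library size) in young basal cells, 0.925 CPM in old basal cells, 1.21 CPM in young luminal cells and 1.54 CPM in old luminal cells. The cell type labels matched their markers. Of the 19 basal markers tested, 17 were lower in luminal than in basal cells at either age, and 14 of 16 luminal markers were higher. Krt5, a keratin of basal cells, averaged 2292 TPM (transcript abundance scaled for length) in young basal against 5.29 in young luminal cells.

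The contractile genes split into a strongly and a weakly expressed set in basal cells. Levels between genes are compared here in TPM, which is scaled by transcript length. Tpm1 averaged 3488 TPM in young basal cells and ranked 32 to 35 among all genes there, followed by Smtn at 747 TPM and Tpm2 at 583 TPM, whose ranges overlapped. Tagln followed at 132 TPM, then Acta2 at 69.3, Myl9 at 52.2 and Cald1 at 35.9, with neighbouring ranges overlapping from Acta2 to Cald1. Myh11 at 12.9 TPM and Cnn1 at 9.70 TPM also overlapped, and Actg2 was lowest at 1.47 TPM. Tpm1, Smtn and Tpm2 together made up 93.4 to 94.2% of the summed TPM of the 10 genes in young basal libraries and 97.1 to 98.7% in old ones. This division into 3 and 7 genes was drawn after the values were seen and is a description only.

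In luminal cells the order changed. Tpm1 was still highest, at 194 TPM in young and 255 TPM in old luminal cells. Smtn and Tpm2 lay at 12.1 and 7.17 TPM in young luminal cells, below Tagln at 21.1 TPM, and their ranges overlapped those of Acta2 at 15.1 and Myl9 at 8.49 TPM. The summed TPM of all 10 genes was 4788 to 5416 in young and 4941 to 5345 in old basal libraries, and 243 to 302 in young and 214 to 374 in old luminal libraries.

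**Figure D1:**
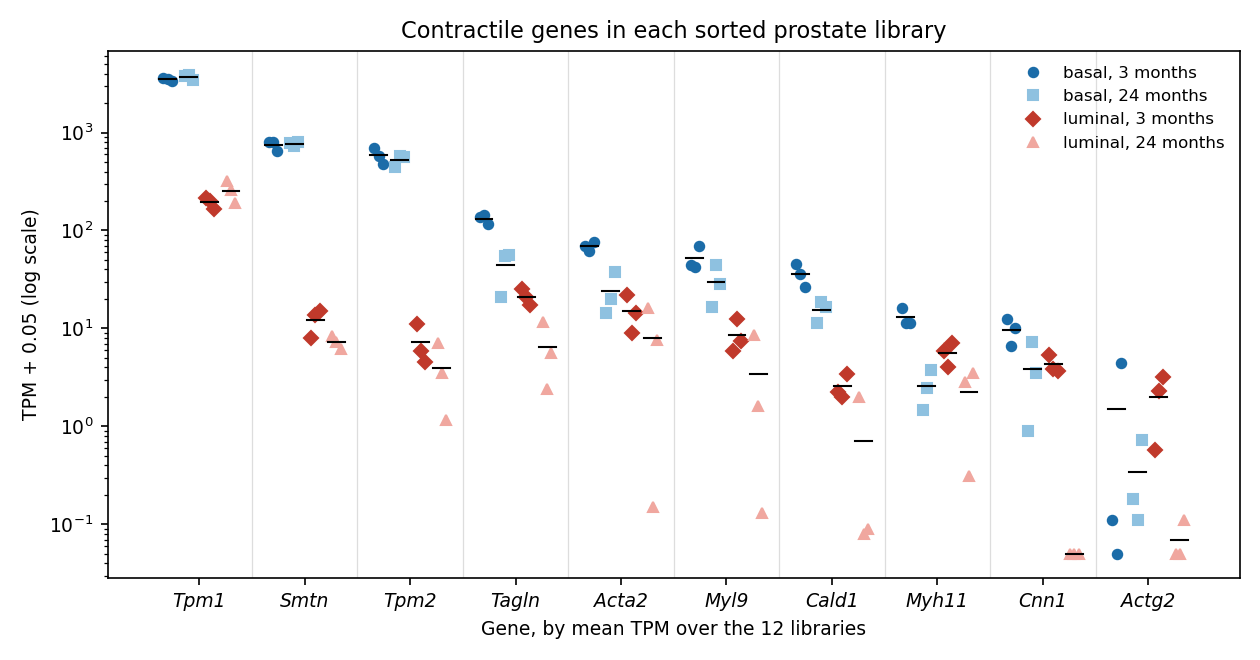
TPM of the 10 contractile genes in each of the 12 libraries, on a log scale with 0.05 added so that values of 0 can be drawn, with a black bar at each group mean (n = 3). Tpm1, Smtn and Tpm2 lie far above the others in basal cells at both ages, while Cnn1 is at 0 in all 3 old luminal libraries.

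The stretches upstream of 3 genes are shown to set a muscle gene that carries the best known smooth muscle element beside 2 genes that were high in basal cells. That element is the CArG box, the site bound by serum response factor (SRF). The capitals mark its strict letters, CCWWWWWWGG with W for A or T. Each run covers the 120 bases just before the annotated gene in build GRCm38.p6, read 5′ to 3′ on the strand of the gene. They are chr2:156775288-156775407 on the plus strand for Myl9, chr4:43523584-43523703 on the minus strand for Tpm2 and chr11:3539293-3539412 on the minus strand for Smtn, with sequences from RefSeq.
Myl9: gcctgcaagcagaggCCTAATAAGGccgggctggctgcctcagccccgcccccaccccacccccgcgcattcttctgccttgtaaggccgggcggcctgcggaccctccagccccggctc
Tpm2: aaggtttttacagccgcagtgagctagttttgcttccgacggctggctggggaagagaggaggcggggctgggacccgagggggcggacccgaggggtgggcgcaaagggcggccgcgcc
Smtn: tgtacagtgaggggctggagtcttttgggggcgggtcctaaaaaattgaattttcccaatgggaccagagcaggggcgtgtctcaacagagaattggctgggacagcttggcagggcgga
Longer promoter windows, from 250 bases before to 50 bases after each RefSeq start, were at hand for 7 of the 10 genes. A CArG box of the strict letters was found on either strand for 1 of these 7, Myl9, and in 1.63% of all 32851 promoters. In Myl9 it began 161 bases before the start used in these windows, which lies inside the annotated gene. Boxes that depart from the strict letters were not searched, so a gene without a match may still carry one. The letters CATTCC, the core bound by TEAD factors, were found on either strand for 4 of the 7 genes, Acta2, Cald1, Smtn and Tpm1, and in 14.7% of all promoters. The letters TGANTCA, which AP-1 binds, were found for Cald1 and in 7.81% of all promoters. No match overlapped a match of another motif, and a match describes letters only.

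The first comparison asked how the contractile genes differ between luminal and basal cells of young mice. Tpm1, Tpm2, Smtn, Cald1 and Tagln were lower in luminal cells, by 4.45-fold for Tagln to 61.8-fold for Tpm2. Calls here are those with an adjusted p below 0.05 in edgeR's quasi-likelihood test with Benjamini-Hochberg adjustment over all 14201 genes, and folds are of mean CPM. Of the 10 genes, 5 were called lower and none higher, where 18.6% of all tested genes were called lower and 19% higher. The 3 luminal libraries lay below all 3 basal ones for 8 of the 10 genes, a pattern that held for 23.1% of all tested genes. The median log2 difference of the 10 genes, luminal minus basal, was -2.14, beside 0.19 over all genes. At an unadjusted p under 0.05, 6 of the 10 genes passed. The share of all genes at this unadjusted threshold was not worked out, so such counts, here and below, are descriptions only.

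Among the actin-binding genes, Tpm1 (chr9:67022590-67049672, minus strand), which encodes alpha-tropomyosin, a coiled coil that lies along the actin filament, had 2923, 2855 and 2536 CPM in the young basal libraries. The young luminal libraries had 236, 216 and 184 CPM. Every basal library was far above every luminal one, and the log2 difference was -3.71 ± 0.18 (SE, edgeR adjusted p = 7.56e-10). Tpm2 (chr4:43513726-43523583, minus strand), which encodes beta-tropomyosin, had 749, 643 and 500.3 CPM in young basal and 16.0, 8.29 and 6.31 CPM in young luminal libraries. Its difference was -5.95 ± 0.50 on the log2 scale (SE, edgeR adjusted p = 2.64e-07). The gap of beta-tropomyosin, 61.8-fold, was wider than the 13.1-fold gap of alpha-tropomyosin, but the difference between them was not tested. Within each library Tpm1 exceeded Tpm2 by 5.12 to 6.99 times in young basal and by 19.3 to 37.4 times in young luminal cells, on TPM.

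Smtn (chr11:3517522-3539292, minus strand) encodes smoothelin, a protein of actin filaments that is widely used as a marker of contractile smooth muscle. It had 1311, 1292 and 1013 CPM in young basal and 17.7, 30.8 and 32.3 CPM in young luminal libraries. The groups did not come near each other, and the log2 difference was -5.48 ± 0.23 (SE, edgeR adjusted p = 2.95e-10). Cald1 (chr6:34598495-34775469, plus strand), which encodes caldesmon, had 91.4, 72.5 and 50.7 CPM in young basal and 6.24, 5.48 and 9.32 CPM in young luminal libraries. Its log2 difference was -3.35 ± 0.89 (SE, edgeR adjusted p = 0.00804). Tagln (chr9:45929628-45936058, minus strand), which encodes transgelin, also called SM22 alpha, had 103, 109 and 83.2 CPM in young basal libraries. In young luminal libraries it had 26.6, 21.6 and 17.9 CPM, and the log2 difference was -2.15 ± 0.43 (SE, edgeR adjusted p = 0.000977). These 5 calls held in all 22 alternative analyses.

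No actin or myosin gene of the list was called in this comparison. Acta2 (chr19:34240336-34255585, minus strand), the alpha smooth muscle actin, had 88.3, 79.02 and 90.4 CPM in young basal and 38.7, 15.6 and 24.8 CPM in young luminal libraries. The groups did not overlap, yet the log2 difference of -1.70 ± 0.82 did not pass the test (SE, edgeR adjusted p = 0.118). Actg2 (chr6:83512909-83536251, minus strand), the gamma smooth muscle actin, was at 0.0356, 0 and 2.54 CPM in young basal and 0.453, 1.89 and 2.66 CPM in young luminal libraries. Its mean in basal cells was below the limit of 3 fragments, and no fold is given.

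Myh11 (chr16:14194527-14292188, minus strand), the smooth muscle myosin heavy chain, had 53.3, 38.0 and 35.9 CPM in young basal and 26.9, 18.3 and 32.1 CPM in young luminal libraries. The groups lay next to each other without overlapping, and the log2 difference of -0.72 ± 0.60 did not pass the test (SE, edgeR adjusted p = 0.381). Myl9 (chr2:156775408-156781657, plus strand), the regulatory light chain, had 22.2, 21.1 and 32.5 CPM in young basal and 4.03, 8.38 and 5.03 CPM in young luminal libraries, a 4.35-fold gap with an edgeR adjusted p of 0.0795. Cnn1 (chr9:22099221-22109221, plus strand), which encodes calponin-1, an inhibitor of actomyosin ATPase, had 12.03, 6.39 and 9.08 CPM in young basal and 7.10, 5.04 and 4.85 CPM in young luminal libraries. These ranges overlapped, and its edgeR adjusted p was 0.615.

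The count of calls depended on the unit of the test and on other settings. Reads were divided by the estimated reads per distinct fragment in 1 alternative, which left 9 of the 10 genes testable, without Actg2. By edgeR on these fragment-equivalent counts, 8 of the 9 were lower in young luminal cells, where 27.6% of all genes tested that way were lower. The added genes were Acta2, at -1.77 ± 0.35 (log2, SE, adjusted p = 7.39e-05), Myl9 with an adjusted p of 0.000448 and Myh11 with an adjusted p of 0.0497. By limma on log2 TPM with a pseudocount of 1, Acta2 (adjusted p = 0.029) and Myl9 (adjusted p = 0.0054) were lower as well. DESeq2's Wald test on reads called Myl9 (adjusted p = 0.0147). On reads, Acta2 also passed without old luminal library 2 (edgeR adjusted p = 0.00318), and Myl9 without old luminal library 1 (adjusted p = 0.032) or 3 (adjusted p = 0.0125). When only the groups compared were fitted, Acta2 (adjusted p = 0.00339) and Myl9 (adjusted p = 0.00731) passed as well. None of the libraries left out belongs to the groups compared, but all 12 share one estimate of the spread.

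On read counts, the same question in old mice gave a wider set of calls, which fragment-equivalent counts did not. Tpm1, Tpm2, Smtn, Cald1, Tagln, Cnn1 and Myl9 were lower in luminal than in basal cells of old mice. These are 7 of 10 genes, beside 19.7% of all tested genes called lower and 15.7% higher, and the same 7 had all 3 luminal libraries below all 3 basal ones, as had 27.9% of all tested genes. The median log2 difference of the 10 genes was -3.48, beside 0.00 over all genes, and the same 7 passed at an unadjusted p under 0.05. That median lies between the fitted values of Tpm1 and Actg2, and Actg2 was below the limit of 3 fragments in both groups.

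Smtn stood at 1494, 1306 and 1469 CPM in old basal and 16.1, 16.9 and 12.1 CPM in old luminal libraries, a 94.6-fold gap with a log2 difference of -6.56 ± 0.24 (SE, edgeR adjusted p = 1.23e-10). Tpm2 stood at 594, 707 and 697 CPM in old basal and 8.76, 5.37 and 1.41 CPM in old luminal libraries, a gap of 128-fold (edgeR adjusted p = 1.08e-07). Tpm1 differed by 12.6-fold, close to its 13.1-fold gap in young mice. Tagln was lower in old luminal cells by 6.05-fold (edgeR adjusted p = 0.000275). Cald1 was also lower there, at a mean of 1.62 CPM against 34.95 CPM in old basal cells (adjusted p = 0.00194). It rested on an estimated 2.80 fragments over the 3 old luminal libraries, near the limit, so no fold is given.

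Cnn1 had 0.942, 7.66 and 3.65 CPM in old basal libraries and no read in any old luminal library. Set against the limit of 3 fragments, it was at least 2.65-fold lower in old luminal cells (edgeR adjusted p = 0.000261). Myl9 had 9.56, 24.0 and 15.6 CPM in old basal and 5.12, 1.13 and 0.0471 CPM in old luminal libraries (log2 difference -2.96 ± 0.93, SE, edgeR adjusted p = 0.0224). This call was lost without old basal library 2 (adjusted p = 0.0789), without old luminal library 2 (adjusted p = 0.0864) and when only these groups were fitted (adjusted p = 0.0712). Acta2 and Myh11 did not pass in the main test, with edgeR adjusted p values of 0.185 and 0.946. The log2 difference of Myh11, -0.08, turned positive under another scaling, at 0.05. By edgeR on fragment-equivalent counts 8 members were lower, as in young mice, where 3258 of 11201 genes tested that way were lower. Acta2 was the added gene (adjusted p = 0.00582), and limma on log2 TPM with a pseudocount of 1 called it too (adjusted p = 0.0396). It was called in these 2 of 22 alternatives. Actg2 was below the limit of 3 fragments in both groups.

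**Figure D2:**
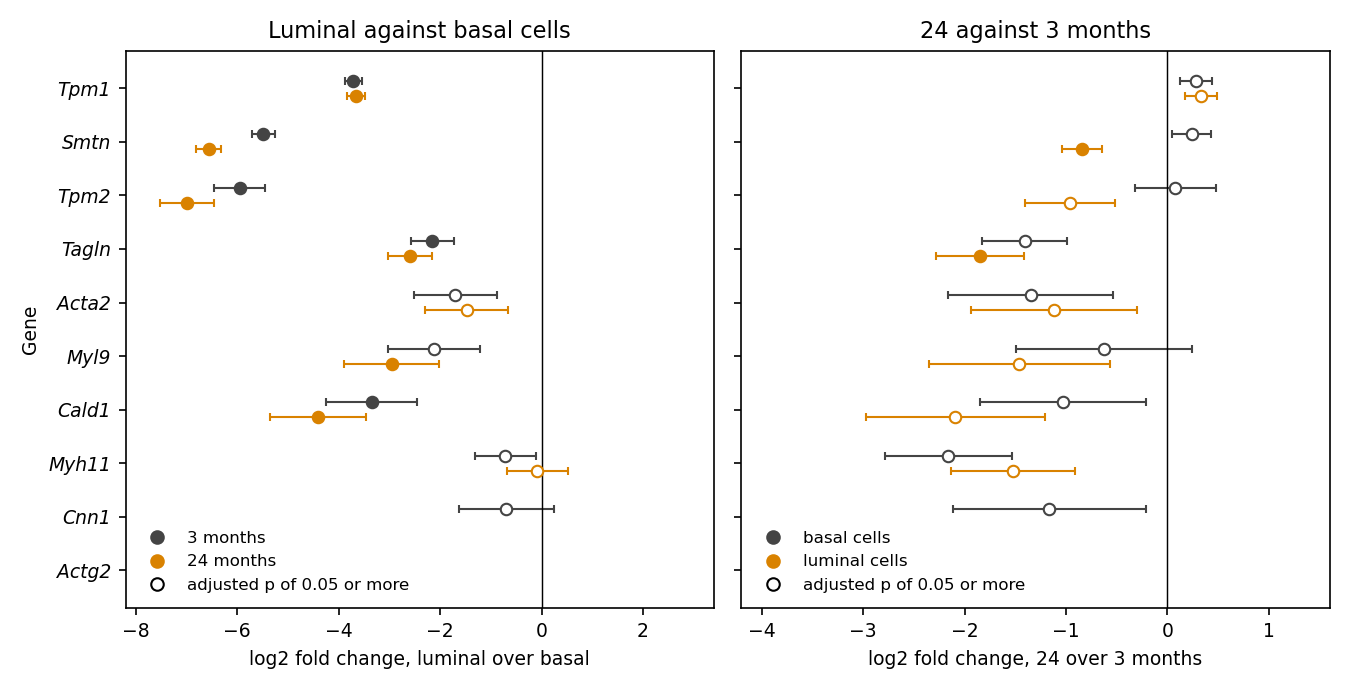
Fitted log2 fold changes with their SE for luminal over basal cells (left, at 3 and 24 months) and for 24 over 3 months (right, in basal and luminal cells), filled where the edgeR adjusted p is under 0.05. Fits with a group whose mean CPM is below the limit of 3 fragments are left out, which removes Actg2 throughout and Cnn1 wherever old luminal cells enter. In the left panel the points run from -6.99 for Tpm2 at 24 months to -0.08 for Myh11, and in the right panel no basal point is filled.

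The next comparison asked what age does to these genes in basal cells. No member was called by edgeR, where 0.225% of all tested genes were called lower and 1.01% higher with age, and 2 of the 10 passed at an unadjusted p under 0.05. The values nevertheless separated for several genes. For Acta2, Tagln, Myh11 and Cald1, all 3 old libraries lay below all 3 young ones, a pattern seen for 5.67% of all tested genes. For Tpm1 all 3 old libraries lay above all 3 young ones on CPM, as for 13.4% of all tested genes. On TPM the ranges of Tpm1 overlapped, at 3342 to 3598 in young and 3430 to 3893 in old basal libraries. The median log2 difference over the 10 genes was -1.10, beside 0.09 over all genes.

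Myh11 stood at 53.3, 38.0 and 35.9 CPM in young and at 5.56, 8.93 and 13.9 CPM in old basal libraries, a 4.48-fold gap with a log2 difference of -2.16 ± 0.63 (SE, edgeR adjusted p = 0.113). Tagln stood at 103, 109 and 83.2 CPM in young and 18.5, 46.0 and 46.5 CPM in old basal libraries, a 2.65-fold gap (edgeR adjusted p = 0.123). Acta2 stood at 88.3, 79.02 and 90.4 CPM in young and 21.1, 27.8 and 52.2 CPM in old basal libraries, a 2.55-fold gap (edgeR adjusted p = 0.479). In each of these 3 genes, old basal library 1 was the lowest of all basal libraries. Cald1 stood at 26.3, 41.4 and 37.1 CPM in old basal libraries, with a 2.05-fold gap to the young ones (edgeR adjusted p = 0.65). In the same libraries Col1a1, a collagen of stromal fibroblasts, averaged 20.2 TPM at 3 and 2.29 TPM at 24 months. Of 14 fibroblast markers tested it was the 1 called lower with age in basal cells, beside 0.225% of all tested genes. The median log2 difference of that list was -1.10, beside 0.09 over all genes. Of 16 other smooth muscle genes, 13 were tested, and none was called with age in basal cells. Of all tested genes, 0.225% were called lower and 1.01% higher. The median log2 difference of these muscle genes was -0.43, and that of Des, the gene of desmin, was -0.15. Whether stroma had a part in these gaps was not tested.

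By edgeR on fragment-equivalent counts, these 4 genes were called lower in old basal cells, 4 of 9 members beside 1.34% of all genes tested that way. The log2 differences were -2.22 ± 0.39 for Myh11, -1.56 ± 0.25 for Tagln, -1.40 ± 0.32 for Acta2 and -1.15 ± 0.27 for Cald1 (SE), with adjusted p values of 0.000653, 0.000226, 0.0107 and 0.0138. DESeq2's Wald test called 2 of the 10, Tagln (adjusted p = 0.00331) and Myh11 (adjusted p = 0.00165), where it called 2.09% of all genes lower. Fitted on the basal groups alone, edgeR called 2, Acta2 (adjusted p = 0.0488) and Myh11 (adjusted p = 0.0185), where 0.524% of all genes were lower. Without old luminal library 2 it called Myh11 (adjusted p = 0.015).

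The strongly expressed genes had values near those of young basal cells. Tpm1 stood at 2923, 2855 and 2536 CPM in young and 3531, 3480 and 3066 CPM in old basal libraries, a log2 difference of 0.28 ± 0.16 (SE, edgeR adjusted p = 0.444). Smtn stood at 1311, 1292 and 1013 CPM in young and 1494, 1306 and 1469 CPM in old libraries, a difference of 0.24 ± 0.19 (edgeR adjusted p = 0.653). Tpm2 differed by 0.08 ± 0.40 (edgeR adjusted p = 0.997), and its sign turned with the scaling, at -0.02 with DESeq2's size factors. Cnn1 and Myl9 had log2 differences of -1.16 and -0.62 with overlapping ranges, and Actg2 was below the limit of 3 fragments at both ages.

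Age in luminal cells was the next question. Cnn1, Tagln and Smtn were called lower in old luminal cells, 3 of 10 genes, beside 0.394% of all tested genes called lower and 1.26% higher. The 3 old libraries lay below the 3 young ones for 6 of the 10 genes, as for 9.6% of all tested genes. The median log2 difference was -1.49, beside -0.02 over all genes, and 7 of the 10 passed at an unadjusted p under 0.05. They include Actg2, which was below the limit of 3 fragments in old luminal cells. Cnn1 had 7.10, 5.04 and 4.85 CPM in young luminal libraries and no read in the old ones, at least a 3.67-fold fall when the old group is set to 3 fragments (edgeR adjusted p = 0.00499). It was called in all 21 alternative analyses. The young value itself rested on an estimated 14.1 fragments over 3 libraries.

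Tagln had 26.6, 21.6 and 17.9 CPM in young and 10.4, 2.64 and 5.28 CPM in old luminal libraries, a log2 difference of -1.85 ± 0.43 (SE, edgeR adjusted p = 0.0464). Smtn had 17.7, 30.8 and 32.3 CPM in young and 16.1, 16.9 and 12.1 CPM in old luminal libraries, a difference of -0.84 ± 0.20 (SE, edgeR adjusted p = 0.0489). Both calls sat at the threshold, with Tagln called in 6 and Smtn in 5 of 21 alternatives. On TPM the ranges of Smtn overlapped, at 8.02 to 14.9 in young and 6.07 to 8.27 in old libraries. Leaving out any single library except old basal 1 or old luminal 1 ended the call of Tagln, with adjusted p values up to 0.147. Leaving out any single library except young basal 3 or young luminal 1 ended the call of Smtn, with adjusted p values up to 0.211.

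The other members varied widely among the old luminal libraries. Acta2 had 38.7, 15.6 and 24.8 CPM in young but 24.3, 0.21 and 11.8 CPM in old luminal libraries, so that old luminal library 2 was almost without it. Myh11 had 11.2, 1.30 and 14.4 CPM in old luminal libraries, again with library 2 lowest, and its edgeR adjusted p was 0.349. By edgeR on fragment-equivalent counts it was called lower (adjusted p = 0.0488) and Smtn was not (adjusted p = 0.108), where 1.51% of all genes tested that way were lower. Cald1 had 4.68, 0.0839 and 0.0943 CPM, with library 1 alone well above 0, and was called lower without that library (edgeR adjusted p = 0.000249). The old luminal libraries left in that fit held 2 reads each, an estimated 0.0513 and 0.0714 fragments. Leaving out library 1 thus removed nearly all of the signal, and the call says little. By edgeR on fragment-equivalent counts of all libraries Cald1 was not called (adjusted p = 0.185). Tpm1 had 302, 308 and 190 CPM in old and 236, 216 and 184 CPM in young luminal libraries and was called higher without old luminal library 3 (edgeR adjusted p = 0.0316). Tpm2 had an edgeR adjusted p of 0.453, with overlapping ranges.

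Whether the age responses of luminal and basal cells differ was tested with an interaction term. Cnn1 was called, 1 of 10 genes, beside 0.394% of all tested genes called lower and 0.423% higher in this term, and 2 of the 10 genes passed at an unadjusted p under 0.05. Its fitted term was -8.86 ± 1.73 on the log2 scale (SE, edgeR adjusted p = 0.0376). That size depends on how the fit treats a group without a read and is no measure of a fold. The call was lost on leaving out any single library except old basal 1, with adjusted p values up to 0.0869. For Smtn the term was -1.08 ± 0.28 (SE, edgeR adjusted p = 0.102), and for the other 8 genes the adjusted p was at least 0.531.

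Ratios within a library compare the members without any scaling between libraries. Tpm2 was 6.31 to 10.1 times Acta2 in young basal, 15 to 31.1 times in old basal and 0.314 to 0.656 times in young luminal libraries, on TPM. Smtn was 8.65 to 12.7, 21.7 to 54.2 and 0.366 to 1.51 times Acta2 in the same groups. For both genes the ranges of these 3 groups did not overlap. In old luminal libraries Tpm2 was 0.148 to 34.9 and Smtn 0.515 to 73.0 times Acta2. These wide ranges overlapped those of the other groups. Tagln was 1.54 to 2.30 times Acta2 in young basal, 1.47 to 2.77 times in old basal and 1.15 to 2.32 times in young luminal libraries, ranges that overlapped, but 0.717 to 23.7 times in old luminal libraries, all 3 outside these ranges. Myh11 was 0.150 to 0.229 times Acta2 in young basal, 0.0997 to 0.121 times in old basal and 0.263 to 0.490 times in young luminal libraries, and 0.1745 to 2.60 times in old luminal libraries. Old luminal library 2, with an Acta2 level of 0.10 TPM, set the upper end of every old luminal range plotted.

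**Figure D3:**
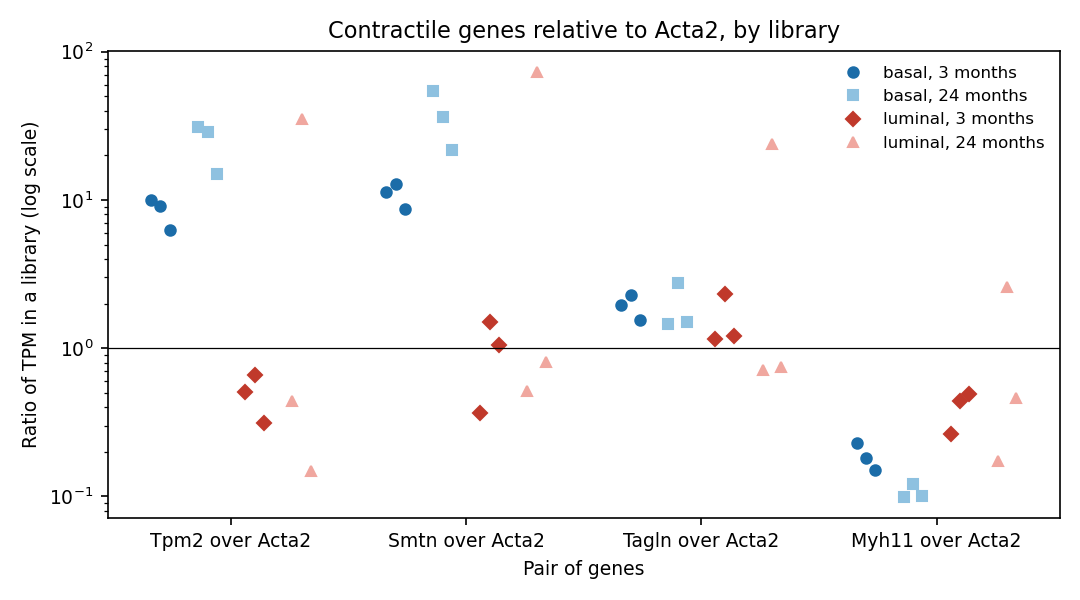
Ratio of Tpm2, Smtn, Tagln and Myh11 to Acta2 in each of the 12 libraries, from TPM on a log scale, with a line at 1. Tpm2 and Smtn lie above Acta2 in all 6 basal libraries and shift upwards in old basal cells, while the Tagln ratios overlap between young basal, old basal and young luminal cells.

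Markers of smooth muscle outside the 10 genes were read beside these results. Of 16 further smooth muscle genes, 13 were tested. In young luminal against young basal cells 2 were lower and 2 higher, beside 18.6% and 19% of all tested genes. Des, which encodes desmin, the intermediate filament of muscle, averaged 4.30 TPM in young and 3.44 TPM in old basal cells, and 5.003 TPM in young and 2.98 TPM in old luminal cells. Its ranges overlapped between all groups, and its luminal to basal difference in young mice was 0.71 on the log2 scale (edgeR adjusted p = 0.565). Acta2 was 8.67 to 34.4 times Des in young basal, 3.19 to 15.4 times in old basal and 2.82 to 3.36 times in young luminal libraries. In old luminal libraries Acta2 was 0.111 to 3.95 times Des.

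Several other muscle genes were at or near 0, and others were not. Myocd, the coactivator that drives the smooth muscle programme with SRF, was at 0 in all young basal libraries and averaged 0.00333 TPM in old basal and 0.30 TPM in young luminal cells. Ldb3, Jph2 and Ppp1r14a were at 0 in all young basal libraries, and Kcnmb1, a potassium channel subunit of smooth muscle, averaged 0.187 TPM there. In young luminal cells these genes averaged 0.18, 0.133, 1.84 and 0.497 TPM. Ppp1r12b, Itga8, Synpo2, Lmod1 and Casq2 averaged 5.39, 2.57, 1.54, 0.763 and 0.43 TPM in young basal cells. Their young luminal means were 2.63, 0.21, 0.87, 0.34 and 0.293 TPM, and none was called between these groups. Mylk, the kinase that phosphorylates the regulatory light chain, averaged 7.89 TPM in young basal and 3.06 in young luminal cells (edgeR adjusted p = 0.142). Synm and Pdlim3, genes of intermediate filament and Z-line proteins, were higher in young luminal cells, at 6.05 against 1.08 TPM (edgeR adjusted p = 0.0122) and 32.6 against 2.15 TPM (adjusted p = 1.35e-05). Csrp1 and Pgm5, 2 genes of actin-associated adhesion and filament proteins, were higher in young basal cells, at 3600.0 against 1079 TPM (adjusted p = 5.31e-08) and 48.3 against 0.503 TPM (adjusted p = 2.45e-06). Hspb6, a small heat shock protein of muscle, averaged 14.03 TPM in young basal and 16.5 TPM in young luminal cells (adjusted p = 0.274). The summed TPM of the 16 genes was 3595 to 3854 in young basal and 1099 to 1237 in young luminal libraries, most of it from Csrp1.

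Genes of fibroblasts were read in the same way. Col1a1, a chain of fibrillar collagen, averaged 20.2 TPM in young basal and 19.5 in young luminal cells, and 2.29 and 2.11 TPM in old ones. It was called lower with age in basal cells (log2 difference -2.95, edgeR adjusted p = 0.0372) and in luminal cells (-3.27, adjusted p = 0.0183). Col3a1 averaged 14.4 TPM in young and 3.85 TPM in old basal cells, 12.1 TPM in young and 2.45 TPM in old luminal cells, and was not called. Of 14 fibroblast markers, all tested, 1 was lower with age in basal and 1 in luminal cells, beside 0.225% and 0.394% of all tested genes. Their median log2 differences with age were -1.10 and -1.96, beside 0.09 and -0.02 over all genes. Dcn, the proteoglycan decorin, was the exception in level, at 1550 TPM in young basal and 65.7 in young luminal cells. The list summed to 1406 to 1807 TPM in young basal and 1222 to 1361 TPM in old basal libraries, nearly all from Dcn.

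Set against a collagen of the same library, Acta2 was 3.16 to 6.90 times Col3a1 in young basal, 3.69 to 9.22 times in old basal and 0.759 to 2.45 times in young luminal libraries. In old luminal libraries Acta2 was 0.0327 to 34.9 times Col3a1, a range that covers all the others. The endothelial list of 12 genes summed to 36.2 to 60.1 TPM in young and 34.4 to 50.3 TPM in old basal libraries, and to 3.27 to 6.45 TPM in young and 5.66 to 12.2 TPM in old luminal libraries. Pecam1, an adhesion molecule of endothelium, averaged 9.90 TPM in young basal cells and was at 0 in all young luminal libraries. The mural list of 10 genes summed to 14.8 to 27.2 TPM in young basal and 8.16 to 12.8 in young luminal libraries. Of the 10, 4 were at 0 in every young basal and 5 in every young luminal library. Of the 7 tested, 1 was lower in young luminal cells, Cspg4 (edgeR adjusted p = 0.0316), and 1 higher, Notch3 (adjusted p = 0.0498). Over all tested genes 18.6% were lower and 19% higher. Mcam was the most abundant of the mural list at 13.9 TPM in young basal cells. Markers of striated muscle summed to 1.62 to 5.63 TPM in young basal and 6.87 to 13.3 TPM in young luminal libraries. Of the 18, 15 averaged under 1 TPM in young luminal cells. Of the 7 tested, 3 were higher in young luminal cells and none lower, beside 19% and 18.6% of all tested genes. The immune list of 12 genes summed to 26.3 to 79.9 TPM in young basal and 1282 to 1606 TPM in young luminal libraries, the latter nearly all from Cd52 at a mean of 1451 TPM (20.5 TPM in young basal cells, edgeR adjusted p = 9.6e-05). At 0 in every library were 7 of the 12 in young basal and 5 in young luminal cells. Ptprc, the leukocyte antigen CD45, was at 0 in both basal groups and in young luminal cells. Which part of the members' signal came from carried-over stroma or vessels was not tested.

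**Figure D4:**
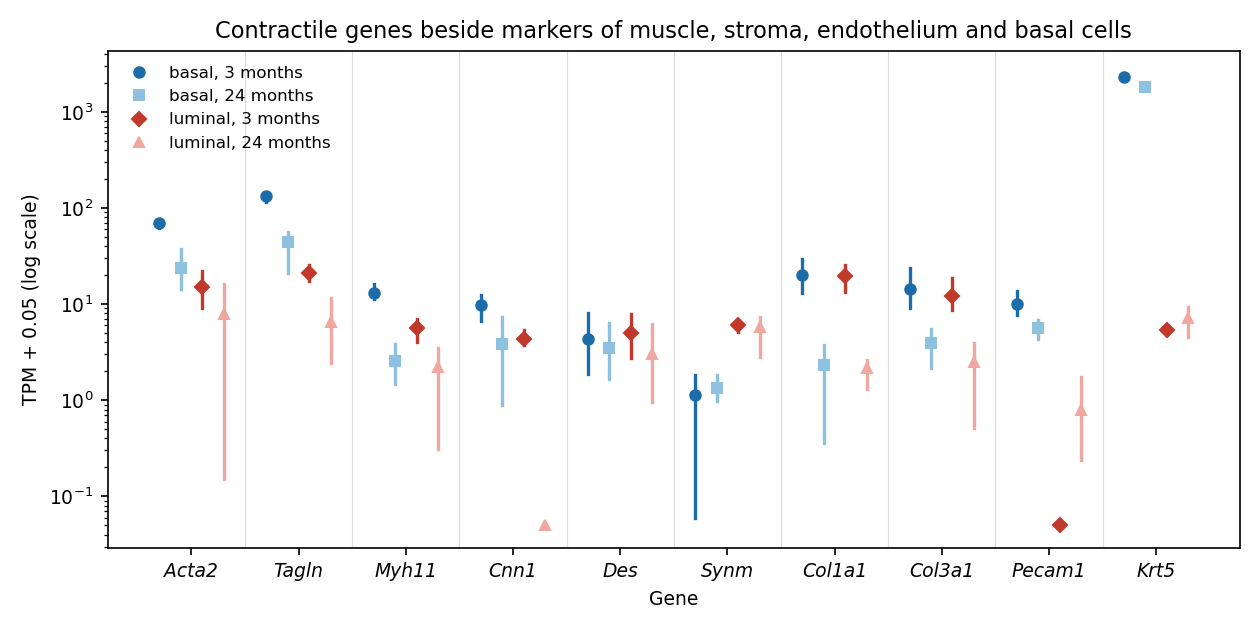
TPM (log scale, 0.05 added) of 4 contractile genes beside smooth muscle (Des, Synm), fibroblast (Col1a1, Col3a1), endothelial (Pecam1) and basal (Krt5) markers, with the mean as a symbol and the range of 3 libraries as a line. Col1a1 and Col3a1 sit at like levels in basal and luminal cells of young mice and lower in old mice, while Acta2 and Tagln are higher in young basal than in young luminal cells.

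Likeness of pattern was ranked by Pearson correlation of log2 CPM with the mean of the 10 genes. Over the 6 basal libraries the nearest of 9112 other genes were Col1a1 (r = 0.992), Mki67 (0.986), Tfeb (0.983), Col6a1 (0.982) and Col1a2 (0.975). Of these, 3 are collagen genes. The 6 points share the split into 3 young and 3 old libraries, and the mean of the 10 genes in basal cells moves mostly with its weakly expressed members. Among these is Actg2, which was below the limit of 3 fragments in both basal groups. It had 0.0356, 0 and 2.54 CPM in the young basal libraries, so the ranking rests in part on a gene near 0. Over all 12 libraries the nearest of 9864 genes were Nid1 (0.969), Lrp6 (0.962), Sparc (0.953), Plekhh2 (0.952) and Aim1 (0.952). Nid1 and Sparc encode a basement membrane linker and a collagen-binding matrix protein. These coefficients describe the libraries and carry no test.

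The cytoplasmic actins, Myh9, Myl12a, Cnn2, Cnn3 and Tagln2 were more abundant than the muscle gene of their family in all 4 groups. Of 20 non-muscle cytoskeletal genes, 17 were lower and 1 higher in young luminal than in young basal cells, beside 18.6% and 19% of all tested genes. Their median log2 difference was -1.16, beside 0.19 over all genes. Actb and Actg1, the cytoplasmic actins, averaged 14230 and 15960 TPM in young basal cells, against 69.3 TPM for Acta2. Myh9, the non-muscle myosin heavy chain IIA, averaged 1052 TPM in young basal and 191 TPM in young luminal cells, and Myl12a, its regulatory light chain, 1761 and 311 TPM. Cnn2 averaged 684 and 54.6 TPM, Cnn3 643 and 336 TPM, and Tagln2 1109 and 506 TPM in these groups. All 7 of these genes were called lower in young luminal cells. Myh10 was not called (edgeR adjusted p = 0.0864), nor was Myl12b (adjusted p = 0.815).

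The tropomyosins were the family in which a member of the contractile list outranked its relatives. Tpm1 was 2.98 to 3.06 times Tpm4 in young basal and 0.658 to 0.920 times in young luminal libraries, on TPM. Tpm3 and Tpm4 averaged 783 and 1154 TPM in young basal cells and were both called lower in luminal cells, by 1.29 and 1.75 on the log2 scale (edgeR adjusted p = 1.08e-06 and 5.07e-09). With age, 4 of the 20 non-muscle genes rose in basal cells, Actg1, Tpm4, Tagln2 and Lima1, and 5 rose in luminal cells. Of all tested genes, 1.01% rose in basal and 1.26% in luminal cells. None of the 20 fell with age in either cell type, beside 0.225% and 0.394% of all tested genes. The sarcomeric actins Acta1 and Actc1 averaged 0.683 and 0.167 TPM in young basal cells.

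**Figure D5:**
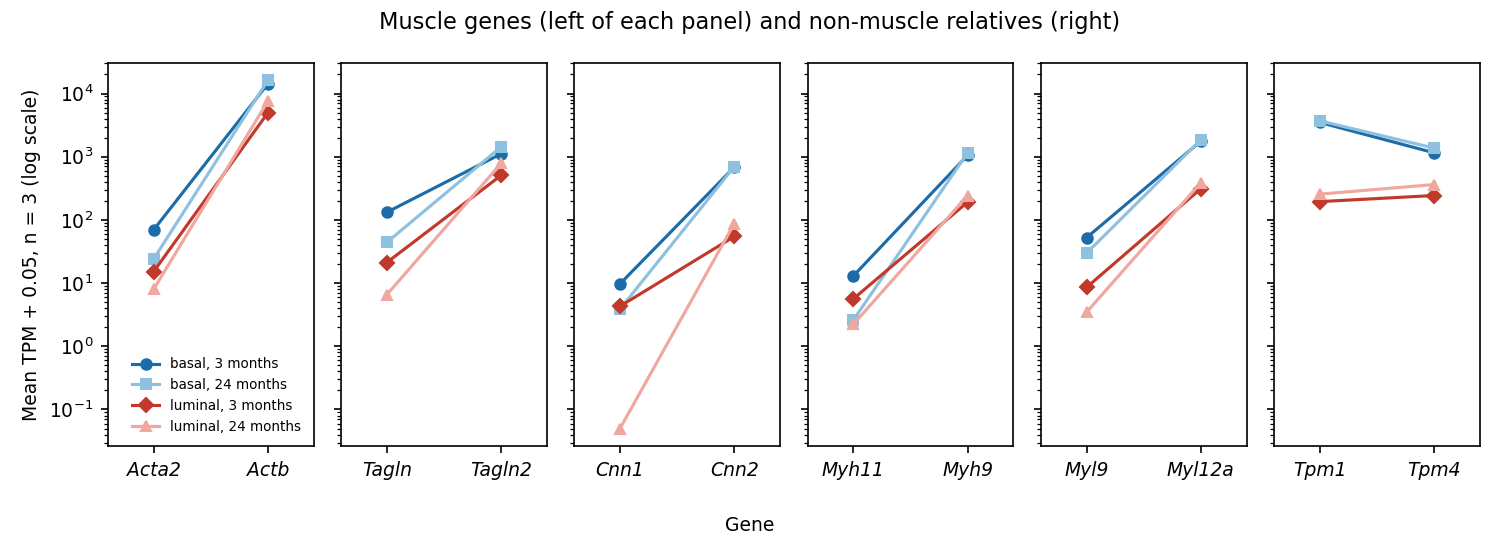
Mean TPM (n = 3, log scale, 0.05 added) of 6 muscle genes and a non-muscle relative of each in the 4 groups. The relative is higher in every group for 5 of the pairs, while Tpm1 lies above Tpm4 in basal and below it in luminal cells.

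Factors known to act on contractile genes were mostly higher in basal cells. Of 13 such factors, 11 were tested, and 7 were lower and 1 higher in luminal than in basal cells at either age. Of all tested genes, 18.6% were lower and 19% higher at 3 months, and 19.7% and 15.7% at 24 months. The medians of the factors were -1.50 and -1.15 on the log2 scale, beside 0.19 and 0.00 over all genes. Srf averaged 336 TPM in young basal and 129 TPM in young luminal cells (edgeR adjusted p = 1.42e-05). Fhl1 and Fhl2, LIM proteins that bind actin filaments or SRF, averaged 343 and 690 TPM in young basal against 13.2 and 81.2 TPM in young luminal cells (adjusted p = 2.1e-09 and 9.93e-09). Tead1, which binds the CATTCC core searched above, averaged 55.3 and 6.26 TPM (adjusted p = 3.11e-07). With age none of the 11 was called in basal cells, and 1, Fhl2, rose in luminal cells. Hopx, the 1 gene higher in luminal cells, averaged 18.9 TPM in young basal and 116 TPM in young luminal cells.

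The machinery that sets light chain phosphorylation leaned the same way. Of 19 regulators of contraction, all tested, 9 were lower and 2 higher in young luminal than in young basal cells. Of all tested genes, 18.6% were lower and 19% higher. The median log2 difference of the 19 was -0.61, beside 0.19 over all genes. Itpr1, a calcium release channel, averaged 55.9 TPM in young basal and 8.07 TPM in young luminal cells (edgeR adjusted p = 6.92e-09). Calm2, 1 of 3 calmodulin genes, averaged 1382 and 413 TPM (adjusted p = 2.86e-07). In old against young basal cells none of the 19 was called.

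Read assignment could be shared with other genes for few members. Of all 50-base words in their transcripts, 0.326% for Acta2 and 0.34% for Myh11 also occurred in another gene, and none did for the other 8. Exons of Tagln overlap 1241 exonic bases of Gm48529 and 108 of Pcsk7 on the opposite strand, and exons of Smtn overlap 714 bases of Gm11946 and 39 of Gm11947. The libraries were stranded, but the strand setting of the counting was not given in the sources used here, so reads of these partners could be included in Tagln and Smtn.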

How the data were processed

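RNA of sorted cells was made into stranded mRNA libraries and sequenced on an Illumina HiSeq, per the labels' protocols. Per the submitters' processing notes, bcl2fastq 2.17, Bowtie2 2.1.0, RSEM 1.2.15 and mm10 were used. The annotation and the strand setting were not given in the sources used here. Per the file headers, the authors deposited RSEM expected counts, TPM and FPKM per gene. FPKM were not used here, and TPM gave levels, ratios and 2 alternative settings of a limma test.

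The expected counts were first rounded to integers, and low genes were removed by the filterByExpr function (set to 10 for the smallest count and 15 for the smallest total). After TMM scaling, edgeR 4.0.16 in R 4.3.3 fitted a single quasi-likelihood model with 1 mean for each group to the 12 libraries. From it 5 contrasts were taken, with Benjamini-Hochberg adjustment over the 14201 genes of each. The common biological coefficient of variation was 0.797. CPM use the TMM-scaled library sizes. Genes longer than 500 bases with 8 or more reads in a single library of their group, and reads in no more than 3 further libraries, were assumed to stem from 1 fragment, and their median count gave the reads per fragment. Fragment-equivalent counts are reads divided by that estimate (minimum count 3, minimum total 10). The p-values measure the spread between libraries of pooled mice, 2 per library, which the series' design text calls biological replicates. Between libraries of a group, chi-square per degree of freedom was 35.0 to 150 over 12 pairs, but it counts every read as independent, and with 16 to 73 reads per fragment it does not show a difference beyond the sampling of molecules.

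The members and lists were chosen with earlier results of these data known. The rule for named genes takes all 10 members, the 16 other smooth muscle genes, the non-muscle relatives, a few fixed markers, up to 4 called genes per list by smallest p, and the 5 genes most like the members over the basal and over all libraries, among genes of at least 5 mean CPM. Genes named outside it (Col3a1 and Mcam) were chosen after their values were seen. The fits were tested on simulated data. The alternatives used DESeq2 1.42.0, limma 3.58.1, other filters, scalings and blocks, and each library left out in turn. Sequences came from RefSeq promoter tables, matched by symbol with Python 3.11.15. No protein sequence was used.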

Additional observations from a re-analysis of the deposited data

Results flagged for a closer look

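The age response of Cnn1 differed between luminal and basal cells by the interaction term, at -8.86 on the log2 scale (edgeR adjusted p = 0.0376). Cnn1 had no read in any of the 3 old luminal libraries, so this number depends on the fit's prior count. By edgeR on fragment-equivalent counts the term was -3.63 ± 1.73 (SE, adjusted p = 0.391).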

How the results depend on the processing

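Of the called differences between cell types, all 5 at 3 months held in every alternative, and at 24 months all but that of Myl9 did. The members called at 3 months numbered 8 on fragment-equivalent counts and 5 to 6 with 1 library left out. At 24 months they numbered 8 on fragment-equivalent counts and 6 to 7 with 1 library left out. In basal cells with age 0 were called in the main analysis, 2 by DESeq2's Wald test, 4 on fragment-equivalent counts, 2 with only the groups compared and 0 to 1 with 1 library left out. In luminal cells with age 3 were called, and 1 with a minimum count of 50, 1 by limma on log2 TPM with a pseudocount of 1 or 0.1, 1 with only the groups compared, 1 with the replicate block and 1 to 3 with 1 library left out. For the difference of the age responses 1 was called, and 2 by the Wald test, 0 by limma with either pseudocount, 0 on fragment-equivalent counts, 0 with the replicate block, 0 with a block of mouse pool and 0 to 1 with 1 library left out. Same-numbered libraries of different groups had residual correlations of -0.097 to 0.159, not all above 0.1, so the numbers were not taken to pair them. Between old basal and old luminal cells they were 0.055 to 0.159, against -0.149 to 0.011 for different numbers, a hint from the data and not the design. The block changed no other count by over 1.5 times.

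Signs turned for differences that were not called. Myh11 between cell types at 24 months was 0.053 with DESeq2's size factors, 0.053 by its Wald test, and -0.601 to 0.497 with 1 library left out, positive without old basal library 3 or old luminal library 2. Tpm2 in basal cells with age was -0.0186 under both DESeq2 settings, -0.135 and -0.136 by limma, -0.000143 on fragment-equivalent counts, -0.00231 with only the groups compared, and -0.0636 to 0.222 with 1 library left out, negative without young basal library 3 or old basal library 2. Actg2 in basal cells with age was -3.57 to 3.11 with 1 library left out, positive without young basal library 3. The difference of age responses turned for Acta2, to -0.645 by limma with a pseudocount of 0.1, -0.0584 with the replicate block, -0.589 with the mouse pool block and, with 1 library left out, -0.784 to 0.886, negative without old luminal library 1. For Tpm1 it was -0.044 to 0.244 with 1 library left out, negative without old basal library 3, young luminal library 3 or old luminal library 1. DESeq2's size factors moved the median of all genes at 24 months from 0.00 to 0.13. The cause of these shifts was not tested. Depth limits Actg2, Cnn1, Cald1 and Myl9 in old luminal cells, each at 0 to 3.66 estimated fragments over the group.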
